A study of Mus musculus with 4 samples.

Results

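The T cell receptor gene segments are the V, D, J and C elements from which T cells build their antigen receptors. All autosomal genes that the GENCODE M21 annotation of the mouse mm10 genome types as T cell receptor V, D, J or C genes were taken, which gave 226 segments of 51229 autosomal genes. They fell into 3 loci. The alpha/delta locus lies on chromosome 14 (chr14:52427928-54224206), where the segments of the alpha and the delta chain share 1796 kb. The beta locus lies on chromosome 6 (chr6:40891229-41558452, 667.2 kb) and the gamma locus on chromosome 13 (chr13:19178024-19352756, 174.7 kb). The measurement was the position of CTCF peaks, and 27 of the 42163 peak summits of the main list lay inside these loci, with a further 14 within 100 kb of their edges.

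Developing T cells join 1 V, 1 J and, for the beta and delta chains, a D segment by DNA recombination, and splice the product to a C segment. CTCF, a DNA-binding protein with zinc fingers, recognises a long asymmetric motif, stops the loop-extruding cohesin complex and so anchors chromosome loops, most often between motifs that point toward each other. In thymocytes CTCF sites in these loci are known to shape the contacts between V segments and the distant D and J segments. Skeletal muscle does not recombine the loci, so in a muscle sample they are for the most part in their unrearranged order.

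CTCF binding was measured in gastrocnemius, a calf muscle, by ChIP-seq, in which DNA pulled down with an antibody against CTCF is sequenced. All tissue came from female mice of the hybrid strain B6CASTF1/J, adult at an age of 2 months, and was kept frozen before use. There were 4 libraries in 2 groups, pool E and pool F, each made from 2 pooled biosamples and sequenced as 2 technical replicates, with no treatment or genotype that separates the groups. The replicates of a pool are merged in every deposited list and 1 control alignment served both pools. No value therefore has a spread between replicates, and the differences below are descriptions without a test. Alleles of the parent strains were not told apart. The lists hold no expression values, so the tissue label was not checked against expression markers, and in whole muscle a site bound in few cells and a site bound weakly in all cells cannot be told apart.

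The conservative list rests on both pools and was the main list. The list headed combined also rests on both, while the pool E and pool F lists rest on 1 pool each. Each list holds peaks at an irreproducible discovery rate (IDR) of 0.05 or less, a measure of how well the order of peaks is kept between a pair of inputs. Ranked lists give the peaks before that threshold. Peak strength is a score the authors deposited with each peak, on a scale that was not stated, with a median of 246 over the conservative list (quartiles 116 and 432). Read depth was unknown. A motif match means the CTCF core motif, 14 bases long, with at most 2 mismatches on either strand and its centre within 50 bp of a summit. Of all autosomal summits 77.6% had one, and of windows displaced by 2000 bp 3.20% had one.

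The sites that carry the main pattern are shown first. They are 40 bases of the mm10 reference (RefSeq GRCm38), 5′ to 3′ on the strand of the motif, with the 14 motif bases in capitals. The first set lies just before alpha/delta V segments and is on the plus strand, as are those segments. Identical 40-base sites in the repeated copies of this locus are written once, and the copies differed in whether a summit was called.
Trav6n-6, with a summit (chr14:53132556-53132595), also before Trav6d-6 and Trav6-6, without one: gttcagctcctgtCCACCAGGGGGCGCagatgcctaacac
Trav3-3, with a summit (chr14:53665826-53665865), also before Trav3d-3 and Trav3n-3, without one: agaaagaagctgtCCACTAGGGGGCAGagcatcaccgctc
Trav8n-2 (chr14:53345727-53345766) and the pseudogene Trav8-2, both with a summit, and Trav8d-2, without one: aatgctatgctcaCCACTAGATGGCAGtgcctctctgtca
Trav10d (chr14:52810765-52810804) and Trav10n, both with a summit: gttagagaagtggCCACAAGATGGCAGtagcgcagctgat
Trav17, with the strongest of these summits (chr14:53806389-53806428): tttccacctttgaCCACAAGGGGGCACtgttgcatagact
Trav6-2, without a summit (chr14:52667273-52667312): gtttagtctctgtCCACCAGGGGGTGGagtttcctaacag

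The second set holds strong or singly placed sites away from V starts. The sites before Trdv4 and the site past Trbv14 have their motif on the plus strand, toward the J and C segments, and the sites before Traj61 and Trbd1 have it on the minus strand, facing the V segments.
Between Trdv3 and Trdv4, distal (chr14:54059951-54059990): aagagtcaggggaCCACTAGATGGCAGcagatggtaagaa
Between Trdv3 and Trdv4, proximal (chr14:54064700-54064739): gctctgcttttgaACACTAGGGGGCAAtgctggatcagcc
Before Traj61, minus strand (chr14:54153019-54153058): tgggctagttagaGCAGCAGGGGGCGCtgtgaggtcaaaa
In Dad1, past Trac (chr14:54239226-54239265): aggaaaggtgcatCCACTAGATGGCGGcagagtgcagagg
Past Trbv14 (chr6:41137160-41137199): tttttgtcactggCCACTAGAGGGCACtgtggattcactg
Before Trbd1, minus strand (chr6:41530164-41530203): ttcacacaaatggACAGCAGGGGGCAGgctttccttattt

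The alpha/delta locus held 19 summits, the beta locus 8 and the gamma locus 0. Per 100 kb this was 1.06 in the alpha/delta locus and 1.20 in the beta locus, beside 1.71 for the autosomes outside assembly gaps. The summits were also weak: their median strength was 138 inside the loci, against 246 for the whole list, and 20 of the 27 lay under that median. Much of the alpha/delta sequence is repeated. Of its 50-base words 59.54% occurred once in the locus and its flanks, beside 87.55% for the beta locus. This share was not taken for the autosomes, and its part in the rates and strengths was not tested. The 3 loci held 20, 10 and 1 summits of the combined list. The list of pool E gave 25, 12 and 1, and that of pool F 14, 6 and 0. These lists differ in size, with 49649, 50899 and 33784 peaks, and in autosomal rate, with 2.01, 2.07 and 1.37 per 100 kb. Per 100 kb the alpha/delta locus had 1.11, 1.39 and 0.779 and the beta locus 1.499, 1.7985 and 0.899. Both loci were thus under the autosomal rate in each list. The pool F list is the shortest, and the part of list size in its lower counts was not tested.

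**Figure D1:**
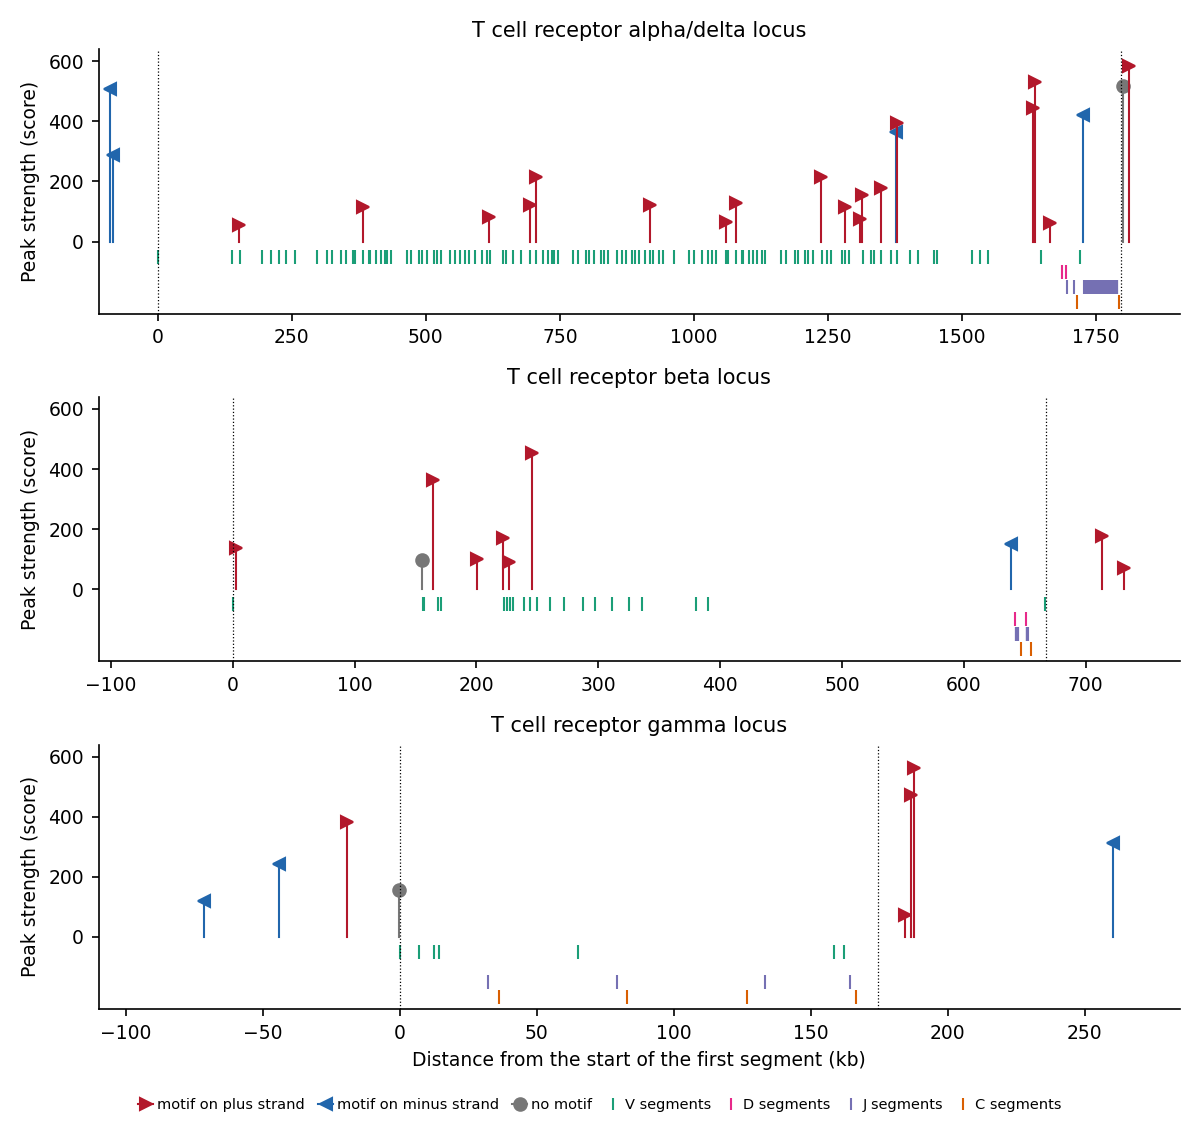
CTCF summits of the conservative list by distance from the start of the first segment (kb) in the 3 loci and 100 kb to each side; stem height is peak strength (a score), arrowheads give the motif strand, grey circles have more than 2 mismatches, ticks below mark V, D, J and C segments, and dotted lines the locus edges. Inside the alpha/delta and beta loci 23 arrowheads point right, toward the J and C segments, and 3 point left, while the gamma locus has summits only outside its edges.

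Almost all of these summits sat on a motif, and most of the motifs pointed 1 way. Of the 27 summits 26 had a motif (96.3%, 95% Wilson interval 81.7 to 99.3), with 23 on the plus strand and 3 on the minus strand. Over all autosomal summits with a motif the plus strand held 49.8%. Several of the sites inside the loci are copies of each other, so the 27 summits are not independent and the interval is too narrow. Outside the 500 bp before V starts, plus and minus counts were 5 and 2 in the alpha/delta locus. In the beta locus they were 4 and 1. In the alpha/delta locus 171 of 172 segments, and in the beta locus 38 of 39, are read from the plus strand, so the plus orientation is the direction from V toward D, J and C. The 3 summits with the motif on the minus strand were the one before Traj61, the one before Trbd1 and the more distant of a pair before Trav17.

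In the alpha/delta locus 12 V starts, 11 of V segments and 1 of a pseudogene, had their summit just upstream, and these were the commonest kind of site. The 12 summits lay 82 to 250 bp before the annotated start (median 145.5 bp). A V segment is transcribed from its own promoter before it is recombined, so this is the promoter side of each segment. All 12 had a motif and all 12 motifs were on the plus strand. Their strengths ran from 54.4 to 395 with a median of 120, while the other 7 summits of the locus had a median of 366. The peaks also differed in the share of their words that occur once in the locus and its flanks. Its median was 71.7% for the 12 (lowest 19.9%) and 100% for the other 7 (lowest 60.5%). Among the 12, the peak before Trav17 had 100%, but so did that before Trav6-7-dv9, with a strength of 116. The weakest, before Trav3-1, had 94.5%. The part of this share in the strengths was not tested.

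From left to right, the summit before Trav3-1 had a strength of 54.4, that before Trav10d 115, that before Trav10n 120 and that before Trav6n-6 214. The summit before Trav8n-2 had 120, that before Trav9-1 64.6, that before Trav10 129 and that before Trav3-3 214. Those before Trav6-7-dv9, the pseudogene Trav8-2 and Trav3-4 had 116, 74.5 and 179. The last of the row, 236 bp before Trav17, had 395 and was the strongest of the 12 and the only one above the median of the whole list. Its partner with the motif on the minus strand lay 2217 bp before Trav17 with a strength of 366, so the pair of motifs, at summits 1981 bp apart, points in opposite directions away from each other. No V segment to the right of Trav17 had a summit in the 500 bp before its start. The V segments nearest to and farthest from a summit were Trav3-4, at 82 bp, and Trav12d-3, at 115738 bp.

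**Figure D2:**
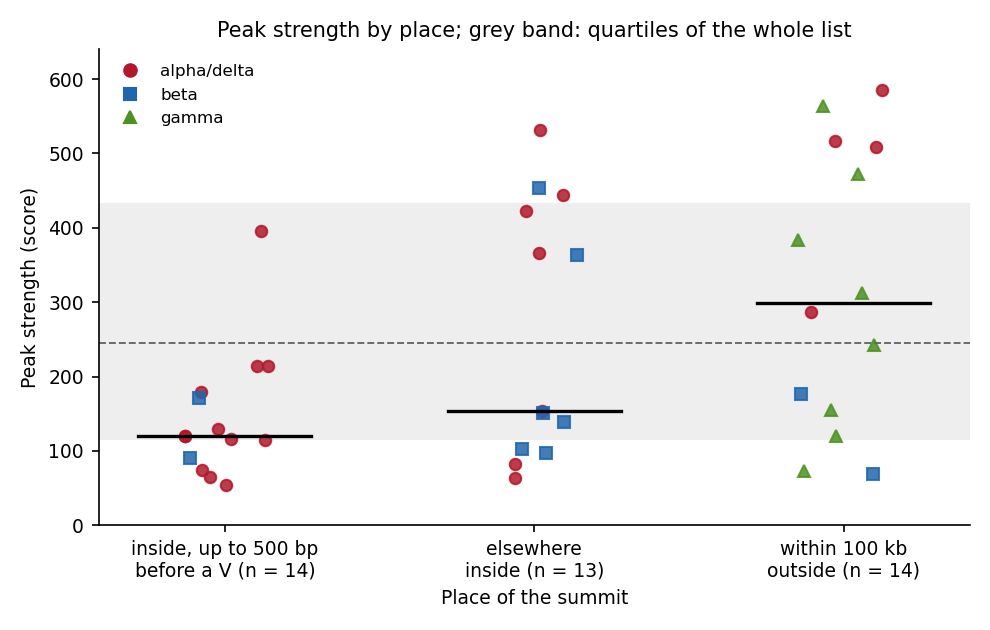
Peak strength (a score) of each conservative summit by its place: inside a locus and up to 500 bp before a V segment or V pseudogene, elsewhere inside, or within 100 kb outside, where the summit before Tcrg-V7 is counted. Symbols give the locus, black bars the medians (120, 154 and 299.5), the dashed line the median of the whole list and the grey band its quartiles; 13 of the 14 inside summits before a V lie under the dashed line.

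Another pair of summits marked copies of 1 more V family. The summit nearest Trav16d-dv11 lay 1760 bp before its start with a strength of 82.2, and that nearest Trav16 lay 1650 bp before its start with 154, both on plus-strand motifs with 2 mismatches. The remaining copy, Trav16n, had a ranked peak 1724 bp before its start (strength 44.2) that did not pass the IDR threshold. The 3 copies thus had a peak at nearly the same distance, and 2 of them passed.

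The motif before V segments was far more common than the summits. Within the 500 bp before the start, 66 of the 115 alpha/delta V segments had a motif (57.4%, interval 48.3 to 66.0), and all 66 motifs were on the segment's own strand. Over all autosomal genes 16.2% had a motif in the same window, and 53.9% of those were on the gene's own strand. At no mismatch the shares were 14.8% of the alpha/delta V segments and 0.353% of all genes. The centres of these motifs lay 39 to 322 bp before the start, with 59 of the 66 within 250 bp, beside 5196 of 8297 over all autosomal genes with one. Of matches with equally few mismatches the one nearest the start was taken, which draws these distances toward the start. The V segments are duplicates of each other, and some copies share an identical site, so these 66 motifs are not independent occurrences.

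**Figure D3:**
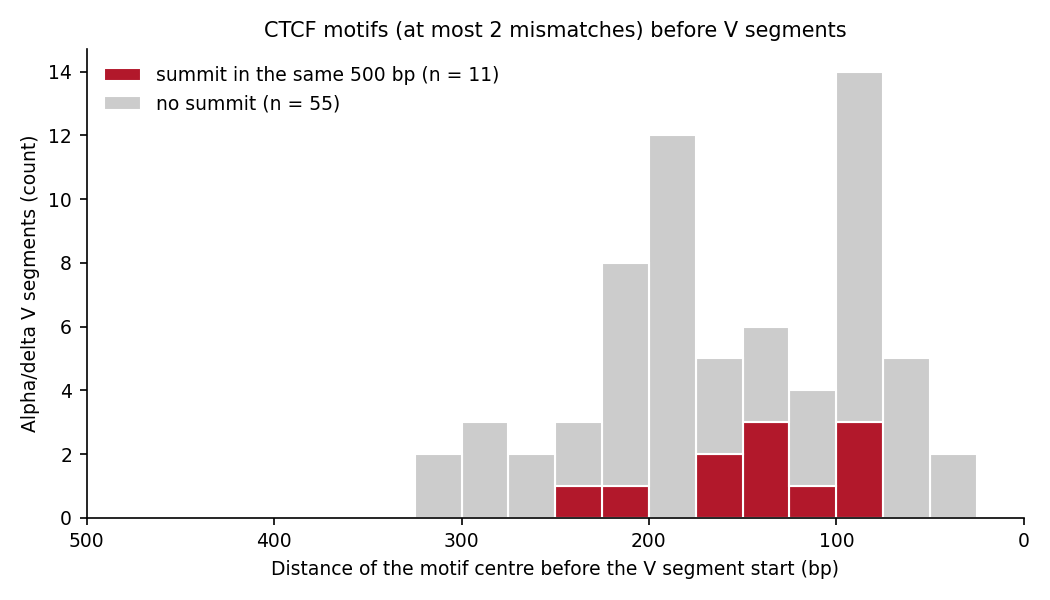
Distance of the best CTCF motif (at most 2 mismatches) before the start of alpha/delta V segments (bp), counted in steps of 25 bp; red marks the 11 segments with a conservative summit in the same 500 bp and grey the 55 without one. Of equally good matches the one nearest the start is shown. None of the centres shown lies more than 322 bp before a start, and red and grey cover much the same distances.

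Among all 144 V segments, 14 had a summit in the 500 bp before the start (9.72%, interval 5.88 to 15.7), beside 5.17% of all autosomal genes. They were 11 in the alpha/delta locus, 2 in the beta locus and 1 in the gamma locus. The combined list gave 14 such V segments (6.21% of all genes), the list of pool E 17 (6.31% of all genes) and that of pool F 10 (4.25% of all genes). Of the 66 alpha/delta V segments with a motif 11 had a conservative summit and 17 had a ranked peak, so 49 had neither.

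Families differed in how many of their members had a summit, counted here over V segments and V pseudogenes. All 3 Trav10 copies had a summit and a motif. Of 8 Trav3 members, all with a motif, 3 had a summit. Of 15 Trav6 members 12 had a motif and 2 a summit, and of 5 Trav8 members all had a motif and 2 a summit. Trav9 had a motif in all 11 members, a ranked peak in 4 and a summit in 1. At the other end, all 13 Trav7 members had a motif, 1 a ranked peak and none a summit. All 10 Trav12 members had a motif, 9 of them without any mismatch, but only 2 had a ranked peak and none a conservative summit; Trav12-3 had one in the pool E list, at a strength of 25.2. Trav13, Trav14 and Trav15, with 12, 9 and 9 members, had neither a motif nor a peak there.

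Copies with the same site sequence gave different calls, as the first set of sequences shows. In the families with a summit, 11 groups of 2 or 3 members shared all 40 bases around their best upstream motif, and in 4 of these groups the shared site was the motif found at a summit. Those 4 groups had 11 members, of which 6 had a summit and 5 did not. The 3 copies with the motif CCACCAGGGGGCGC are an example: the one before Trav6n-6 had a strength of 214, and those before Trav6d-6 and Trav6-6 had no peak in the conservative or ranked list. The copies of the 14-base site CCACTAGGGGGCAG behaved the same way, with 214 before Trav3-3 and no peak before Trav3d-3 and Trav3n-3.

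The uniqueness of the surrounding sequence is given beside these calls. The measure used was the share of 50-base words in the upstream 500 bp that occur once in the locus and its flanks. It was 70.7% before Trav6n-6, 0% before Trav6d-6 and 0% before Trav6-6. It was 81.6% before Trav3-3, 8.87% before Trav3d-3 and 11.1% before Trav3n-3. In these trios the copy with the summit had the highest share. The Trav8 trio went the other way: the share was 67.0% before Trav8d-2, which had no summit, and 60.5% and 62.3% before Trav8n-2 and Trav8-2, which had one.

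Over the alpha/delta V segments with a motif, the 11 with a summit had a median of 76.7% of words found once (22.2 to 100), and the 55 without a summit a median of 18.2% (0 to 100). Of 29 such segments with at least 50% of words found once, 10 had a summit, and of 37 under 50%, 1 had one, Trav9-1. The 11 exact motifs in sequence under 50% included those before Trav12d-1, Trav12d-2 and Trav12n-1, and none had a summit. The read length and the treatment of reads that map to several places are not given in the sources used here, and the part of uniqueness in these calls was not tested.

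**Figure D4:**
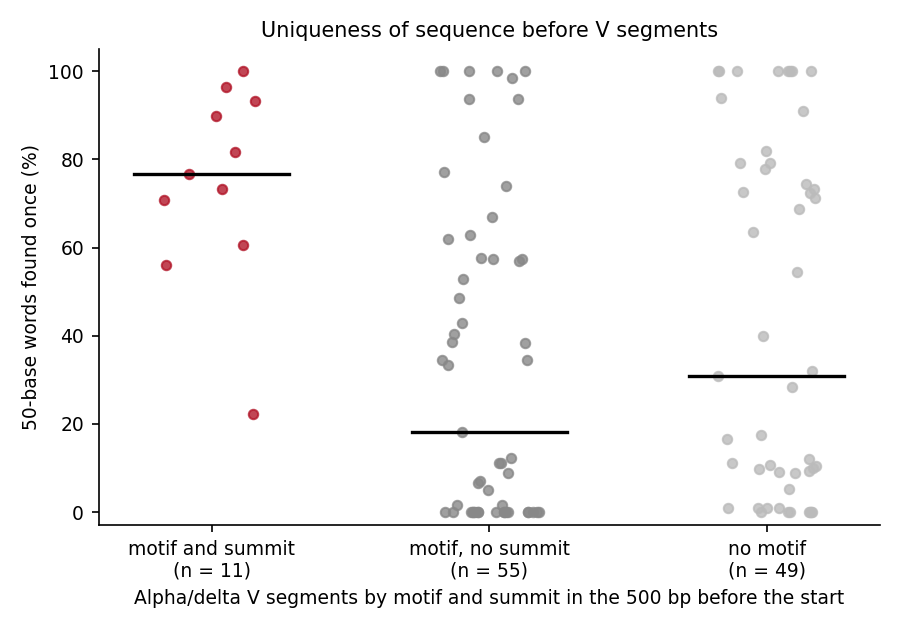
Share of 50-base words in the 500 bp before each alpha/delta V segment that occur once in the locus and 100 kb to each side (%), by whether the window holds a CTCF motif and a conservative summit; each point is 1 segment, spread sideways for legibility, and bars are medians. The 11 segments with motif and summit have a median of 76.7%, the 55 with a motif alone 18.2% and the 49 without a motif 30.8%.

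Some segments with a motif in unique sequence also had no call. Trav6-1, Trav6-2, Trav6d-4 and Trav6-4 had 93.8 to 100% of words found once and a motif with the single change C12T against the consensus, counted from 1 at its 5′ end, and had neither a summit nor a ranked peak. Trav6-7-dv9, which had a summit, had the single change C1T. The single change C12T also stood at called summits outside the loci, those of 473 and 563 past Tcrg-C4 and that of 177 past Trbv31. The 14 bases CCACAAGATGGCAG stood before the 3 Trav10 copies, which had summits of 115, 120 and 129, and also before Trav7d-3 and Trav7-3, which had no peak although 57.4% of their words occurred once. Trav12-1, with an exact motif and 85.1% of words found once, had no peak within 500 bp before its start either.

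The strongest summits of the alpha/delta locus lay between the delta V pseudogene Trdv3 and Trdv4, to the right of the Trav segments. The first was 14938 bp before Trdv4, a delta V segment, with a strength of 444, and the second 10194 bp before it with 531, higher than 90.5% of the conservative list. Both motifs were on the plus strand. To their left, back to the summit at Trav17, ran the longest stretch of the locus without a conservative summit, 253.6 kb with 8 V segments. To their right a weak summit of 63.0 lay 17130 bp past Trdv4, in a masked repeat within the antisense gene Gm30275. All 50-base words around the 2 strong summits occurred once.

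The J and C side of the alpha/delta locus held 1 summit. It lay 1948 bp before Traj61, an annotated J pseudogene at the start of the alpha J cluster, with a strength of 422 and its motif on the minus strand, facing back toward the V segments and the 2 strong sites before Trdv4. The T early alpha promoter, from which the J cluster is first transcribed in thymocytes, is known to lie on this side of the cluster. From this summit to the end of the locus 71.1 kb with 51 J segments had no conservative summit and 1 ranked peak, of strength 14.2 near Traj49. The D segments Trdd1 and Trdd2 lay 20823 and 29581 bp from their nearest summit. Trdj1, the first J segment, lay 29919 bp away and Traj2, the last, 10307 bp. Traj59 was the nearest J segment to a summit, at 3076 bp, and Traj29 the farthest, at 37197 bp. Trdc, the delta constant gene, had its nearest summit at 10206 bp and Trac, the alpha constant gene, at 7622 bp.

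Strong summits also lay on both sides of the alpha/delta locus. Past Trac, 3937 bp beyond its end, a summit of 517 had no match closer than 4 mismatches within 50 bp. At the same site the summit of the list of pool F, set 8 bp to the left, had a plus-strand match with 2 mismatches. The same pool F peak held a further, weak summit 4130 bp past Trac, with a strength of 18.4 and a plus-strand match with 1 mismatch. Both lie within the conservative peak. At 15034 bp beyond the end, inside Dad1, a summit of 585 had an exact motif on the plus strand. Dad1 is a housekeeping gene, and the enhancer of the alpha chain is known to lie between Trac and Dad1. On the left the nearest summits were 84127 and 89071 bp before Trav1, with strengths of 287 and 508 and both motifs on the minus strand, across a row of olfactory receptor genes. At Trav1, the first V segment, the nearest summit was thus 84127 bp away, while at Trdv5, the last, it was 3763 bp away. Inside the locus no other protein-coding gene (3, all olfactory receptors) held a summit.

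In the beta locus the 8 summits were split between the V cluster and the D side. Trbv1 had a summit 1852 bp past its end (strength 138, exact motif). Trbv2 had one 573 bp before its start (97.5), the only one inside the loci without a motif at 2 mismatches, its best match having 3. Trbv4 had one 3644 bp before its start (364), which is 133 bp from the start of the noncoding gene 5830405F06Rik. The pseudogene Trbv10 had one 633 bp before its start (102), within the gene AC153851.1.

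Only the Trbv12 family had beta summits within 500 bp before the start. The summit before Trbv12-1 lay at 497 bp with a strength of 172 and that before Trbv12-2 at 482 bp with 90.4, both on the plus strand, so they stood farther from the segment than any of the 12 alpha/delta ones. The strongest summit of the locus lay 1554 bp past the end of Trbv14 (454), in a masked repeat and on an exact plus-strand motif. Before V starts of the beta locus a motif was found in 7 of 22 segments, 5 of them on the segment's strand.

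The summit before Trbd1 was the last before the D, J and C segments. It lay 3003 bp before Trbd1, with a strength of 151 and the motif on the minus strand, facing the V segments as the one before Traj61 does. A region upstream of Trbd1 is known in thymocytes as a barrier that keeps the active chromatin of the D and J segments from spreading. From it to the end of the locus, 28.3 kb with 17 D, J and C segments had neither a conservative peak nor a ranked peak behind that list. The list of pool E had 1 peak there, 1108 bp from Trbv31, with a strength of 34.2. Trbj1-1 and Trbj2-7, the first and last J segments, lay 3666 and 13612 bp from the conservative summit before Trbd1. From the same summit Trbc1 lay 8020 bp, Trbc2 16532 bp and Trbd2 11965 bp away.

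The longest stretch of the beta locus without a summit, 393.0 kb, ran from the summit past Trbv14 to the one before Trbd1. It held 10 V segments and 8 other protein-coding genes. Of these genes 6 have names that start with Try or Prss, among them Try4, Try5, Prss1 and Prss2, which are digestive proteases of the pancreas. The others, Gm5771 and Gm10334, were not classed. Trbv30, at 144206 bp, was the beta V segment farthest from a summit, and Trbv31, the single beta V segment beyond the C segments and on the minus strand, was 28254 bp away. None of the 14 other protein-coding genes inside the locus held a summit. A peak 3900 bp before Trbv28, with an exact motif and a strength of 83.3, stood just outside the threshold at an IDR of 0.0519, and passed in the combined list and in that of pool E. Just inside the threshold was the summit before Trav3-1, at an IDR of 0.0322.

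Outside the beta locus the right side had summits at 46039 bp from Trbv31, with a strength of 177 and 991 bp from the start of Ephb6, and at 64355 bp, inside the calcium channel gene Trpv6, with 69.1. The left side had none within 100 kb.

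The gamma locus was empty in the main list but had summits close to both edges. Its 15 segments (7 V, 4 J and 4 C) lay in 174.7 kb without a conservative summit. One summit stood 237 bp before the start of Tcrg-V7, the first V segment, and so just outside the edge, with a strength of 155 and a best match of 3 mismatches on the plus strand. Its distance is like that of the summits before alpha/delta V segments. It lay within the antisense gene Gm31887. The other gamma V segments had no summit within 5000 bp, and none of the 7 had a motif in the upstream 500 bp.

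Within 100 kb of the gamma locus 4 summits lay on each side. On the left, summits stood 19319, 43992 and 71375 bp before Tcrg-V7 with strengths of 383, 242 and 120, the more distant pair in Amph, which encodes a protein of membrane trafficking. On the right, 3 summits lay 9807, 11935 and 13047 bp past Tcrg-C4, inside Stard3nl, with strengths of 72.6, 473 and 563 and all motifs on the plus strand. Another lay 85632 bp past it with 312. Tcrg-C4 and Tcrg-C2 were 18005 and 55012 bp from the nearest summit, Tcrg-C1 36316 bp and Tcrg-C3 83097 bp, so no gamma constant gene was close to one. Among V segments Tcrg-V3 was the farthest (65058 bp) and Tcrg-V1, the last, lay 22574 bp away. Of the J segments, Trgj1 and Trgj4, the first and last, lay 32556 and 20411 bp away and Trgj3 79330 bp. In the combined and pool E lists a single summit lay inside the locus, 6290 bp before Tcrg-V3, with a combined strength of 45.8.

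Counted by gene start, T cell receptor segments had fewer summits close by than genes in general. Within 5000 bp of the start, 35 of 226 segments had a conservative summit (15.5%, interval 11.4 to 20.8), beside 27.3% of all autosomal genes and 38.2% of protein-coding genes. By class this was 27 of 144 V, 1 of 4 D, 7 of 70 J and 0 of 8 C segments. By locus it was 18 of 172 alpha/delta segments (10.5%), 16 of 39 beta segments (41.0%) and 1 of 15 gamma segments. Neighbouring segments share a summit, as the 5 beta J segments near the site before Trbd1 do, so the intervals cover counting error only and are too narrow. Immunoglobulin segments, the counterpart in B cells, had a summit in 9 of 264 (3.41%).

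The choice of window moved these shares. Within 1000 bp 15 segments had a summit (6.64%, all of them V segments), against 12.5% of all genes. Within 20000 bp 96 had one (42.5%), against 54.6%. Within 5000 bp the share was 16.4% in the combined list (31.2% of all genes), 19% in the list of pool E (31.6%) and 11.9% in that of pool F (22.9%). The share of T cell receptor segments was under that of all genes in each of these comparisons.

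The pool E list held more of the sites than the pool F list, as it did over the whole conservative list. It is also the longer of the 2, with 50899 peaks against 33784. All 27 summits had a peak of the pool E list within 100 bp, and 19 also had one of the pool F list, while over the whole conservative list 95.8% and 78.6% did. The 8 found in pool E only were weak, from 54.4 (Trav3-1) to 129 (Trav10). Of the 12 alpha/delta summits before a V 8 were in the pool F list, among them those before Trav17, Trav3-3 and Trav6n-6.

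The strengths of each pool at the same peaks are given by the 2 inputs of the ranked list, of which the first matched pool E and the second pool F. At the 27 summits the log2 ratio of the first to the second input had a median of 1.18 (0.43 to 2.04), beside 1.03 over all passing peaks. The site 10194 bp before Trdv4 had 306 in the first and 227 in the second input. The site before Trav6n-6 had 164 and 48.5, and that before Trav10 103 and 26.4. The strong sites away from V starts before Trdv4, before Traj61 and past Trbv14 had log2 ratios of 0.43 to 0.73, under the median of all passing peaks. The scale of the score is not stated, so a difference in depth and a difference in binding between the pools cannot be told apart.

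**Figure D5:**
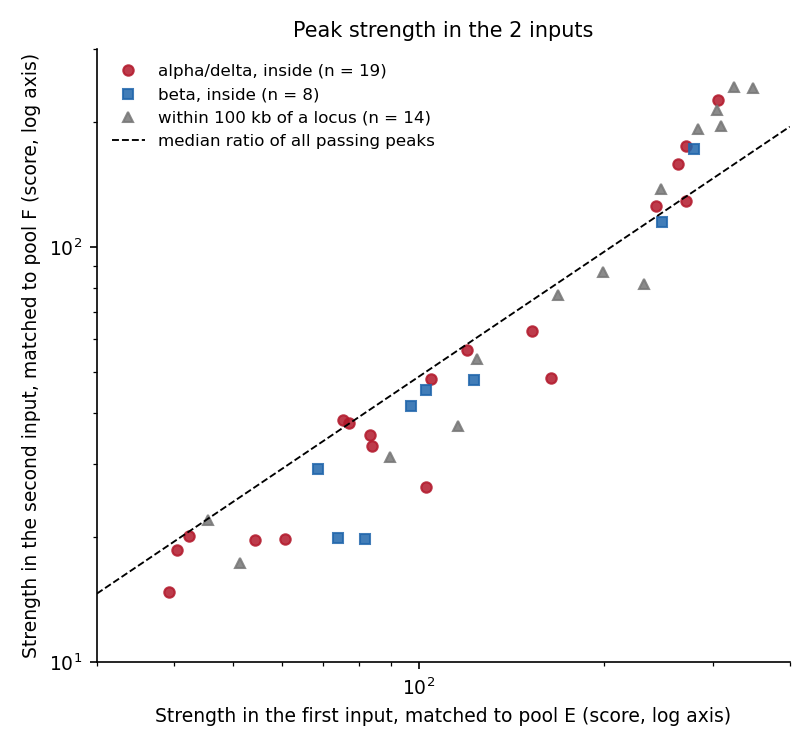
Peak strength of the 41 conservative summits in and within 100 kb of the loci in the first input, matched to pool E (x axis, score, log scale), and in the second, matched to pool F (y axis, score, log scale). Symbols give the place, and the dashed line the median ratio of all passing peaks; weak summits lie mostly under the line and the strongest above it.

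Of 55 ranked peaks inside the loci 27 passed the threshold (49.1%), beside 41.0% of the whole ranked list. The 28 that did not pass had strengths from 12.5 to 83.3. Several repeated the pattern of the summits before V segments: ranked peaks that did not pass lay on plus-strand motifs 73 bp before Trav12-3, 104 bp before Trav12-2, 109 bp before Trav9-2 and 247 bp before Trav8d-2. Their strengths were 28.8, 32.1, 28.6 and 33.3. Others did not repeat it: Trav19 and the pseudogene Trdv3 had a ranked peak in the 500 bp before the start, but neither a summit nor a motif there.

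Genes that work with the receptor were looked at in the same way, from a list of 50 in 4 roles. Within 5000 bp of the start 17 had a summit (34.0%, interval 22.4 to 47.8), beside 27.3% of all autosomal genes and 38.2% of protein-coding genes, the type of all 50. Recombination and repair genes had one in 7 of 14, while signalling genes had one in 3 of 9. The role of transcription factors, which also lists the receptors Notch1 and Il7r, had one in 6 of 14. Among genes of the receptor complex and T cell surface it was 1 of 13, Cd28, a co-stimulatory receptor, with a strength of 50.7 at 3547 bp. That call was lost in the combined list and in the list of pool F, where 0 of the 13 had one. The median distance to a summit was 6616.5 bp for recombination genes and 10815 bp for the receptor complex.

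The 5 strongest of these summits were all near recombination genes. Nhej1 and Lig4, which join broken DNA ends, had 532 at 537 bp and 487 at 1162 bp. Xrcc6, the Ku70 subunit that holds the ends, had 490 at 2062 bp, and Polm, a polymerase that fills them, 482 at 120 bp. Rag1, which with Rag2 cuts the segments, had 422 at 3552 bp. The first listed gene without a summit in each role was Cd3e, a chain of the CD3 complex, at 10320 bp, Fyn, a kinase, at 72992 bp, Rag2 at 23939 bp and Tcf7, a T cell transcription factor, at 14543 bp. Of 9 T cell marker genes 1 had a summit within 5000 bp, or 2 in the list of pool E. The 1 in the conservative list was Lck, the kinase at the start of receptor signalling, with 394 at 3660 bp. Of 10 muscle fibre marker genes 7 had one, or 4 in the list of pool F, beside 27.3% of all autosomal genes in the conservative list. Within 20000 bp the counts were alike, 7 of 9 and 8 of 10, beside 54.6% of all autosomal genes. A CTCF peak near a start says nothing of whether the gene is expressed.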

How the data were processed

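CTCF ChIP-seq peaks from gastrocnemius of B6CASTF1/J mice were taken as deposited: 4 thresholded and 4 ranked lists on mm10, per the file headers and the notes deposited with each sample. Fragments of 200 to 600 bp were kept, per the labels. The aligner, the peak caller and their settings are not given in the sources used here. The score used as peak strength is the authors' own, with no stated scale, and the IDR was read from the deposited −log10 column of the ranked lists. No list gives read depth, and technical replicates are merged, so no test between pools was made.

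Summits were peak start plus summit offset. Segments and pseudogenes came from GENCODE M21 by gene type, on the 19 autosomes. The edges of a locus were the first and last base of its segments, with flanks of 100 kb. Distances run from a segment's start, on its own strand. The motif was CTCF's 14-base consensus core, searched on both strands. At a summit, the match with the fewest mismatches and then nearest the summit was kept. Before a gene start, the match with the fewest mismatches and then nearest the start was kept. On simulated sequence every planted motif with up to 2 mismatches was recovered. Sites of 2 lists within 100 bp counted as shared. Shares have 95% Wilson intervals, which take segments as independent. Words of 50 bases were counted on both strands within a locus and its flanks.

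Named were all conservative summits inside a locus, the nearest outside each edge, every C segment, the first and last segment of each class, the segments nearest to and farthest from a summit, and of the 50 related genes the 5 with the strongest summit and the first listed without one in each role. Other V segments were named after their values were seen, to show copies with like sites. The members, the gene list and the alternatives were chosen with earlier results of these data known. Python 3.11.15, numpy 2.4.6, pandas 2.3.3, scipy 1.17.1 and matplotlib 3.10.9 were used.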

Additional observations from a re-analysis of the deposited data

How the results depend on the processing

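No paired analysis was possible because technical replicates are merged in every list and no list holds 1 library. Of 63 alternatives to 12 results, 43 stayed within 1.5 times a count or within the interval or spread of the main value. The other 20 moved. A change of direction was looked for only in the log2 ratio of the 2 inputs, which kept its sign. Its median was 1.118 over all ranked peaks in the loci and 1.175 over those that passed. With only the conservative peaks at or above the median strength, summits inside the alpha/delta and beta loci came to 5 and 2, and the shares of all, V and J segments within 5000 bp to 3.10%, 3.47% and 2.86%. The gamma locus held 1 summit in the combined and in the pool E list. The V share was 13.2% in the pool F list. Windows of 1000 bp gave 6.64%, 10.4% and 0%, and windows of 20000 bp 42.5%, 38.9% and 47.1%, for all, V and J segments, and 18% and 66% for the related genes. The share of summits with a motif was 70.4% at 1 mismatch and 100% at 3. Chosen after seeing the data, 6 further settings of V segments were tried: a summit in the upstream 500 bp was found in 16.2% of V segments whose upstream words mostly occur once, the 4 other lists stayed within the interval, and 46.1% of alpha/delta V segments had a motif at 1 mismatch. Causes were not tested. Unknown depth limits every absent peak: a site without a summit was not called at this depth, which does not show that it was unbound.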

Other observations

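The pseudogenes of the loci were set beside the segments. Of 34 V pseudogenes 17 had a motif in the 500 bp before the start, against 73 of 144 V segments (50% and 50.7%). In the alpha/delta locus it was 15 of 21 pseudogenes and 66 of 115 segments, with 14 of the 15 on the pseudogene's own strand. In the same 500 bp 1 of the 34 pseudogenes had a summit, Trav8-2, and 4 a ranked peak, beside 14 and 21 of the 144 segments, and 5.17% of all autosomal genes had a summit. Within 5000 bp of the start 5 of 34 V pseudogenes had a conservative summit (14.7%) and 27 of 144 V segments did (18.8%).

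Masked repeats held 2 of the 27 summits inside the loci (7.41%), beside 19.8% of all autosomal summits. Sites outside the loci but within 100 kb had 7 motifs on the plus and 5 on the minus strand.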
